A study of Mus musculus with 16 samples.

Results

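The thermogenic programme of beige fat cells was followed through 10 genes in the inguinal white adipose tissue of male mice: Ucp1, Cidea, Dio2, Ppargc1a, Prdm16, Cox8b, Cox7a1, Kcnk3, Fabp3 and Otop1. The 10 genes were taken by name, with earlier results of these data known, and their symbols in the authors' deposited tables were joined by Ensembl identifier to the count table of 55487 genes. All 10 were found, and all 10 were among the 16549 genes with enough counts to be tested. The animals lacked Kmo in the whole body (KO) or were their wild-type littermates (WT). Kmo encodes kynurenine 3-monooxygenase, an enzyme of tryptophan breakdown. The mice were 6 to 7 months old and ate chow or a high-fat diet (HFD). Each of the 4 groups (WT chow, KO chow, WT HFD, KO HFD) held 4 libraries. The duration and composition of the diet, the strain, the housing temperature and the design of the Kmo allele are not given in the sources used here.

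Beige adipocytes are fat cells of white depots that can take on features of brown fat, with many mitochondria and small lipid droplets. Their hallmark is uncoupling protein 1, which lets protons return across the inner mitochondrial membrane so that respiration yields heat in place of ATP. Noradrenaline from sympathetic nerves acts on beta-adrenergic receptors of these cells, raises cyclic AMP, and through it transcription of Ucp1, Dio2 and Ppargc1a. The inguinal depot is the depot of the mouse in which such cells are most often studied.

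The sequences just before the start of transcription are shown for 4 members because they set a gene that fell steeply with the HFD beside one that did not. Ucp1, Cox8b and Cox7a1 fell together with the HFD, and Dio2, which in textbooks is also a cyclic AMP target, did not pass the test (values follow). The windows come from RefSeq on GRCm38.p6 and are written 5′ to 3′ on the strand of the gene. The Ucp1 window is chr8:83290098-83290347 (plus strand), that of Cox8b is chr7:140900447-140900696 (minus strand), that of Cox7a1 is chr7:30183921-30184143 (plus strand), and that of Dio2 is chr12:90739039-90739288 (minus strand). The Cox7a1 window has 223 bases because it stops where the annotated gene of the count table begins. The others have 250 bases. The Dio2 window lies before the RefSeq start, which is upstream of the Dio2 gene model used for counting. Capitals mark TGACG or its reverse complement CGTCA, the core of the cyclic AMP response element, AGGTCA or TGACCT, the core bound by nuclear receptors, TATAAA on the strand of the gene, and CCAAT or ATTGG, the CCAAT box.
Ucp1: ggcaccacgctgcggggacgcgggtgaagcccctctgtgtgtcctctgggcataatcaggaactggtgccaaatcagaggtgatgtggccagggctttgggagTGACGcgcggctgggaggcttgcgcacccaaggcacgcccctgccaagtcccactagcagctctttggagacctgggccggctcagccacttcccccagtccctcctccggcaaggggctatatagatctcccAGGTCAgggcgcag
Cox8b: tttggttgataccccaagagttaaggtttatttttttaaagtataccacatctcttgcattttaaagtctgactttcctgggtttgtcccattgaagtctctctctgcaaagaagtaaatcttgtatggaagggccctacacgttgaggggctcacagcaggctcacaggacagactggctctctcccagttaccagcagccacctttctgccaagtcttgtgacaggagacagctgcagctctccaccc
Cox7a1: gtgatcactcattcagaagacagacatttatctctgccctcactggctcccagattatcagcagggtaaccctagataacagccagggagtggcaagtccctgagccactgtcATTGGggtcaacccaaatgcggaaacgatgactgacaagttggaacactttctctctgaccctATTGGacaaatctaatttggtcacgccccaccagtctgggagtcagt
Dio2: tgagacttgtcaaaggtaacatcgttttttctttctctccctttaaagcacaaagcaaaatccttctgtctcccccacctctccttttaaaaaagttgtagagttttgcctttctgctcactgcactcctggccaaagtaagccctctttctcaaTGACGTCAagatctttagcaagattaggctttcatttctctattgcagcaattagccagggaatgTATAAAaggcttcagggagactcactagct
In Ucp1 the letters TGACG began 147 bases before the RefSeq start and AGGTCA began 14 bases before it. Dio2 held the full palindrome TGACGTCA 95 bases before its start, so that TGACG and CGTCA overlap there, and TATAAA 30 bases before it. Cox7a1 held ATTGG at 137 and 74 bases before its RefSeq start, which lies downstream of the end of the window shown. Cox8b held none of these motifs. Among all 32851 RefSeq promoter windows of 250 bases, 17.8% held TGACG on either strand, 1.55% TGACGTCA, 14% AGGTCA, 12.4% TATAAA and 33.8% CCAAT. A match is a description of the letters only. RefSeq windows were found for 8 of the 10 members. Among those not printed, Fabp3, which also fell with the HFD, held TGACG 149 bases before its RefSeq start. Ppargc1a held CGTCA at 49 bases and Prdm16 held CCAAT at 98 bases.

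Library totals ran from 13824404 to 16909361 read pairs. Values are CPM, a gene's read pairs scaled by TMM-adjusted library sizes to a common total, so that 1 CPM stood for about 14 to 17 read pairs. Kmo gave 1 to 8 read pairs in each of the 8 KO libraries and 40 to 298 in each of the 8 WT libraries. Fabp4, the fatty acid binding protein of all fat cells, had group means of 11125 to 14249 CPM. Genes of skeletal muscle and of lymphoid tissue were present at levels that differed widely between libraries of the same group. The 18 muscle genes summed to 168 to 6203 CPM in the WT chow libraries and to 182 to 2727 CPM in WT on the HFD. In KO the sum ran from 110 to 1132 CPM on chow and from 137 to 628 CPM on the HFD. The 12 lymphoid genes summed to 542 to 1479 CPM in WT and 349 to 1023 CPM in KO on chow, and to 864 to 1886 CPM in WT and 1254 to 1645 CPM in KO on the HFD. In each HFD group 1 of the muscle genes was at 0 in all 4 libraries, and no lymphoid gene was at 0 throughout a group. The lymphoid sum is mostly Ighm, the heavy chain of immunoglobulin M, with group means of 579 CPM in WT and 519 CPM in KO on chow and of 1109 CPM and 1295 CPM on the HFD. Cox8b, Cox7a1 and Fabp3 are made by muscle as well as by brown and beige fat cells, and fits that take account of the muscle genes are given where they are described. In all, 4 libraries came from a single sequencing lane (WT chow 2, WT HFD 3, WT HFD 4 and KO HFD 1) and 12 were merged over lanes. By the labels' animal codes, every HFD animal has a lower number than every chow animal. What the codes stand for is not given. Diet cannot be told apart from anything that goes with their order.

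On the HFD 5 of the 10 members were lower than on chow in WT, and the same 5 in KO: Ucp1, Cidea, Cox8b, Cox7a1 and Fabp3. Ucp1 stood on average 46.5-fold lower in WT and 105-fold lower in KO, Fabp3 8.28-fold and 24.6-fold, Cidea 5.79-fold and 7.02-fold, and the subunits Cox7a1 and Cox8b 2.76-fold to 4.41-fold. Dio2, Prdm16, Kcnk3 and Otop1 did not pass the test in either genotype, and Ppargc1a passed it in the edgeR fit over both genotypes. Of all genes tested, 4.92% were called lower with the HFD in WT and 5.23% in KO (edgeR quasi-likelihood test, adjusted p under 0.05). Over the members the median log2 fold change was -1.03 in WT and -1.14 in KO, beside -0.03 and -0.04 over all genes tested. None of the 10 was called higher, where 6.9% of all genes were in WT and 7.28% in KO.

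**Figure D1:**
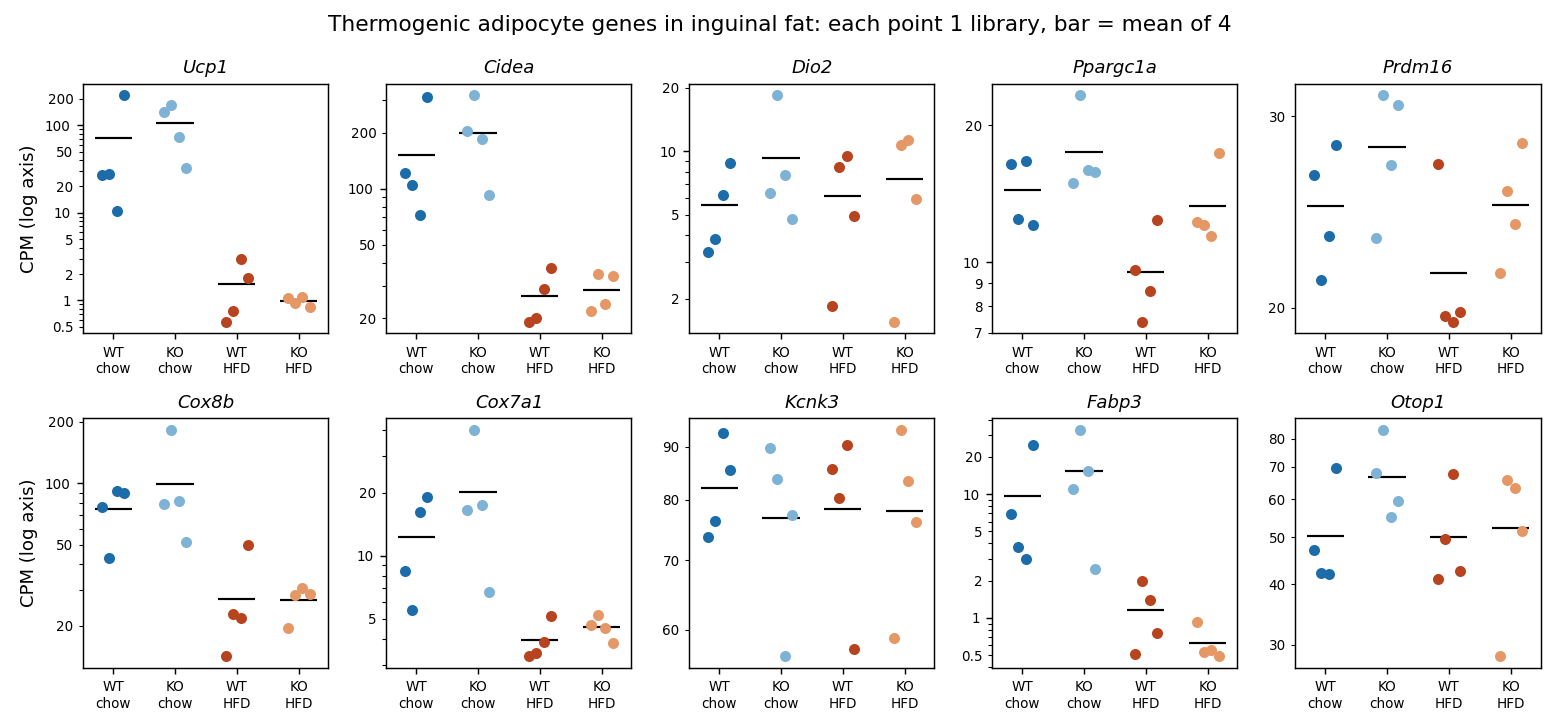
Each panel plots 1 gene, with CPM on a log axis against the 4 groups. Each point is 1 library, in replicate order from left to right, and the bar is the mean of 4. All 8 HFD libraries lie below all 8 chow libraries for Ucp1, Cidea, Cox7a1 and Fabp3, while Dio2, Prdm16, Kcnk3 and Otop1 overlap.

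Ucp1 (ENSMUSG00000031710, chr8:83290352-83298452, plus strand) was at 26.7, 27.7, 10.5 and 222 CPM in the WT chow libraries 1 to 4 and at 141, 172, 73.6 and 32.9 CPM in the KO chow libraries. On the HFD it was at 0.572, 0.766, 2.99 and 1.83 CPM in WT and at 1.06, 0.934, 1.11 and 0.837 CPM in KO. The lowest chow library thus lay above the highest HFD library, and within chow the libraries spread 21.1-fold in WT and 5.23-fold in KO. The HFD values rest on 9 to 45 read pairs per library in WT and 12 to 18 in KO, against 158 to 3472 and 526 to 2535 on chow. The log2 fold change with the HFD was -5.54 in WT (SE 1.01, edgeR adjusted p = 0.00676) and -6.72 in KO (SE 1.08, adjusted p = 0.00446). In the order of group means (KO chow, WT chow, WT HFD, KO HFD), neighbours of the same diet overlapped and the neighbours of different diets did not. Without WT chow library 4 the WT change was smaller, -3.81 with an edgeR adjusted p of 0.00843. In bulk tissue, fewer thermogenic cells and less RNA per cell cannot be told apart.

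Cidea (ENSMUSG00000024526, chr18:67343604-67367785, plus strand) encodes a protein of the lipid droplet surface that is abundant in brown and beige fat cells. It was at 121, 105, 72.2 and 312 CPM in WT chow and at 205, 320, 185 and 92.1 CPM in KO chow. With the HFD it was at 19.2, 19.98, 28.7 and 37.4 CPM in WT and at 21.9, 34.7, 23.8 and 33.9 CPM in KO. No HFD library reached the lowest chow library in either genotype, and the same chow library was highest for Cidea as for Ucp1 in each genotype. Its log2 fold change was -2.53 in WT (SE 0.46, edgeR adjusted p = 0.00642) and -2.81 in KO (SE 0.47, adjusted p = 0.00477). Without WT chow library 4 it was -1.92 in WT (edgeR adjusted p = 0.0147). Its paralogue Cidec, which marks the large droplets of white fat cells, moved the other way and rose with the HFD by a log2 fold change of 0.79 in WT (edgeR adjusted p = 0.00713) and 0.60 in KO (adjusted p = 0.0228).

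Cox8b and Cox7a1 encode subunits of cytochrome c oxidase, the last complex of the respiratory chain, in the forms found in brown fat, muscle and heart. Their counterparts Cox8a and Cox7a2 are made in most tissues. Cox8b (ENSMUSG00000025488, chr7:140898945-140900446, minus strand) was at 76.7, 43.0, 91.8 and 89.1 CPM in WT chow and at 14.2, 22.9, 21.7 and 49.9 CPM in WT HFD. In KO it was at 78.8, 183, 81.8 and 51.7 CPM on chow and at 19.5, 28.4, 30.8 and 28.8 CPM on the HFD. The diets did not overlap in KO, and in WT HFD library 4 lay above WT chow library 2. With the HFD the log2 fold change of Cox8b was -1.47 in WT (SE 0.42, edgeR adjusted p = 0.038) and -1.88 in KO (SE 0.42, adjusted p = 0.0144). With the muscle score, the mean log2 CPM of the muscle genes tested, as a covariate the Cox8b values were -1.55 and -1.83, and both passed. The 2 libraries highest in muscle genes were WT chow 3 and WT HFD 3. Without them the WT value of Cox8b was -1.26 and no longer passed (edgeR adjusted p = 0.149). Both are WT, so all KO libraries stayed in this fit. It therefore does not test how the KO call (edgeR adjusted p = 0.0244) depends on muscle-rich libraries.

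Cox7a1 (ENSMUSG00000074218, chr7:30184144-30186078, plus strand) was less abundant, at 8.47, 5.52, 16.2 and 19.1 CPM in WT chow and at 3.30, 3.45, 3.86 and 5.16 CPM in WT HFD. KO libraries gave 16.5, 40.1, 17.4 and 6.69 CPM on chow and 4.67, 5.21, 4.54 and 3.84 CPM on the HFD. Diets did not overlap in either genotype. Its log2 fold change was -1.64 in WT (SE 0.46, edgeR adjusted p = 0.0334) and -2.14 in KO (SE 0.46, adjusted p = 0.0112). The muscle score as a covariate gave -1.65 and -2.06 for Cox7a1, and both passed. Without WT chow 3 and WT HFD 3 the WT value of -1.47 did not pass (edgeR adjusted p = 0.124). KO lost no library in this fit, so its edgeR adjusted p of 0.0186 is no test of muscle-rich libraries in KO.

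Because each subunit has a ubiquitous counterpart, its share of the pair can be read within a library, without scaling between libraries. Of the length-scaled counts of Cox8a and Cox8b, Cox8b made up 25.8% ± 5.27 (SD, n = 4) in WT chow and 13.5% ± 5.59 in WT HFD. In KO the Cox8b share was 30.6% ± 9.06 on chow and 13.3% ± 2.29 on the HFD. The Cox7a1 share of Cox7a1 and Cox7a2 was 13.1% ± 6.10 in WT chow and 5.98% ± 0.856 in WT HFD, and 17.7% ± 7.48 and 7.53% ± 1.57 in KO. The share was lower on the HFD for Cox8b in KO and for Cox7a1 in both genotypes, each with p = 0.0286 in the exact two-sided permutation test, the smallest that 4 against 4 libraries allow. For Cox8b in WT the exact permutation p was 0.0571. Cox8b thus made up a smaller part of its pair in KO, and Cox7a1 in both genotypes, with the HFD. Cox7a2 itself fell in KO (log2 fold change -0.56, edgeR adjusted p = 0.0206).

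**Figure D2:**
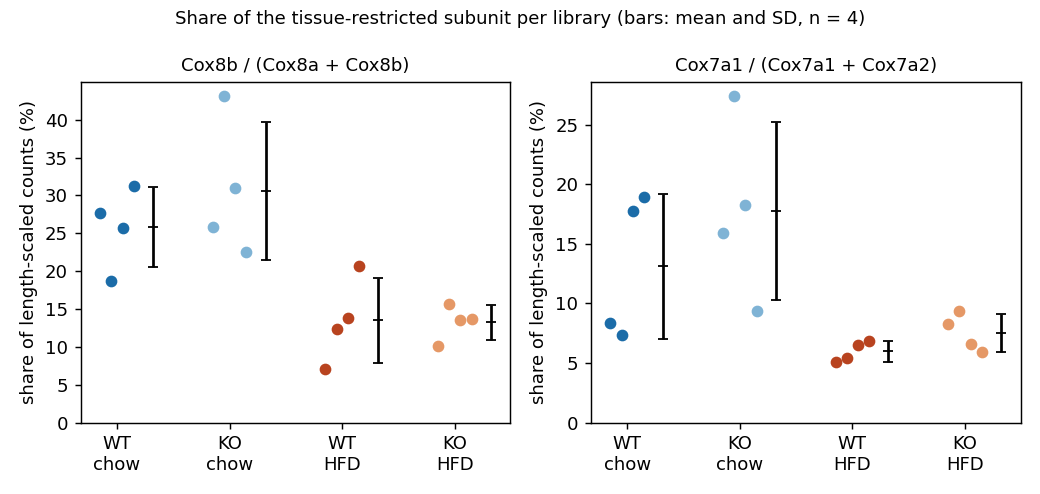
The share of the tissue-restricted subunit in the length-scaled counts of its pair, in percent, is plotted for each library of the 4 groups. Black bars give the mean and SD of 4 libraries. The Cox7a1 share is lower in every HFD library than in every chow library of the same genotype, and the Cox8b share is so in KO, while the highest WT HFD library (20.7%) exceeds the lowest WT chow library (18.7%).

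Fabp3 (ENSMUSG00000028773, chr4:130308595-130315463, plus strand) encodes a fatty acid binding protein of oxidative cells such as heart, muscle and brown fat. It was at 6.91, 3.72, 2.99 and 24.96 CPM in WT chow and at 11.1, 33.2, 15.3 and 2.50 CPM in KO chow. On the HFD it was at 0.508, 1.98, 1.40 and 0.756 CPM in WT and at 0.920, 0.534, 0.553 and 0.488 CPM in KO, which is 7 to 31 read pairs per library. No HFD library reached a chow library of its genotype. The log2 fold change was -3.05 in WT (SE 0.80, edgeR adjusted p = 0.0266) and -4.62 in KO (SE 0.87, adjusted p = 0.00718). Without WT chow library 4 the WT value was -1.96 and did not pass (edgeR adjusted p = 0.101), and without KO chow library 2 the KO value was -3.93 (adjusted p = 0.0224). With the muscle score as a covariate Fabp3 was at -2.59 in WT and -4.36 in KO, and both passed. Without WT chow 3 and WT HFD 3 the WT value was -3.44 (edgeR adjusted p = 0.0503). KO lost no library in this fit, and its edgeR adjusted p was 0.0112. Fabp3 shares 81 exon bases with the antisense gene Zcchc17, and the counts do not use strand. Its abundant relatives Fabp4 and Fabp5 did not pass the test in either genotype.

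In WT the calls of Ucp1 and Cidea stood without any single library, with edgeR adjusted p-values up to 0.0256. Those of Cox8b, Cox7a1 and Fabp3 were less firm. The Cox8b call ended without WT chow 1, 3 or 4, WT HFD 1, 2 or 3, or KO HFD 2, 3 or 4 (edgeR adjusted p 0.0507 to 0.109). That of Cox7a1 ended without WT chow 3 or 4 or WT HFD 1, 2 or 3 (adjusted p 0.0579 to 0.107), and that of Fabp3 without WT chow 4 or WT HFD 1, 3 or 4 (0.0629 to 0.101). With only the 12 libraries merged over lanes, which leaves 2 WT HFD libraries, none of the 5 passed in WT (adjusted p 0.053 to 0.178), although the log2 fold changes ran from -2.09 to -6.98. In KO all 5 calls stood without any single library, with edgeR adjusted p-values up to 0.0467.

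**Figure D3:**
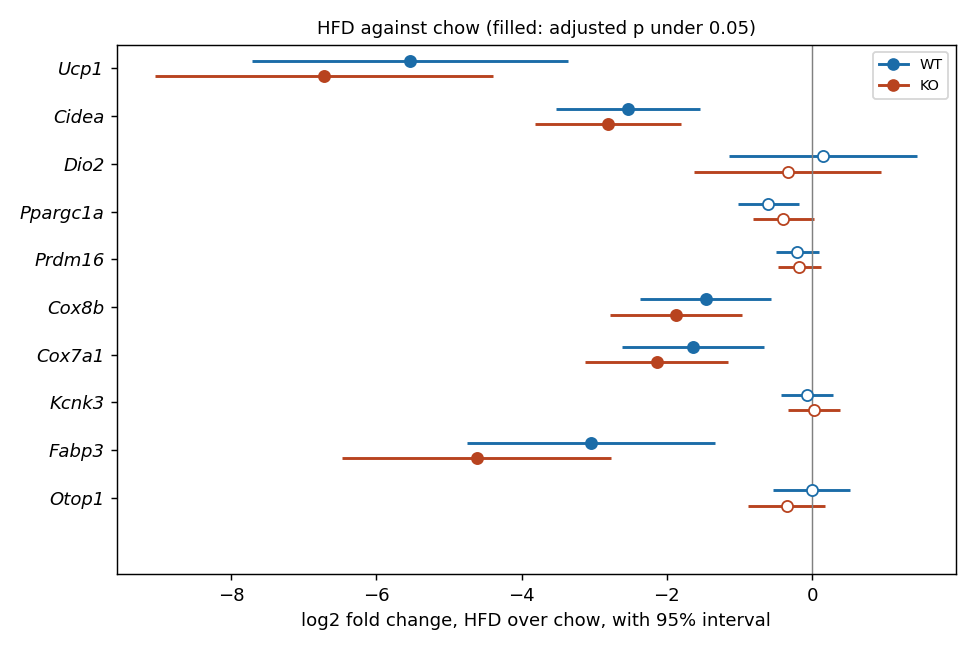
The log2 fold change of HFD over chow is plotted for each gene in WT (blue) and KO (red) with its 95% interval from the edgeR fit. Filled points passed an adjusted p of 0.05. Ucp1 lies farthest from 0 at -5.54 and -6.72, and the intervals of Dio2, Prdm16, Kcnk3 and Otop1 include 0 in both genotypes.

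Dio2 (ENSMUSG00000007682, chr12:90724552-90738438, minus strand) encodes the deiodinase that turns thyroxine into active thyroid hormone inside the cell. It was at 3.32, 3.85, 6.19 and 8.81 CPM in WT chow and at 1.84, 8.42, 9.44 and 4.91 CPM in WT HFD. In KO it was at 6.35, 18.4, 7.68 and 4.75 CPM on chow and at 1.56, 10.7, 11.2 and 5.93 CPM on the HFD. The diets overlapped throughout. Its log2 fold change was 0.15 in WT (95% interval -1.15 to 1.45) and -0.33 in KO (-1.62 to 0.96), with edgeR adjusted p-values of 0.891 and 0.739. The sign turned in WT without WT chow 1 or WT HFD 2 or 3 (-0.02 to -0.13), and in KO without KO chow 2 (0.24) or KO HFD 1 (0.003). The WT interval leaves room for a change of more than 2-fold either way, and the KO interval for a fall of more than 2-fold.

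Ppargc1a and Prdm16 encode regulators of transcription, the coactivator that drives mitochondrial genes and a cofactor that specifies brown and beige fat cells. Ppargc1a (ENSMUSG00000029167, chr5:51454250-51567726, minus strand) was at 16.5, 12.5, 16.7 and 12.1 CPM in WT chow and at 9.60, 7.40, 8.65 and 12.4 CPM in WT HFD. KO libraries gave 14.97, 23.3, 15.96 and 15.8 CPM on chow and 12.2, 12.1, 11.4 and 17.4 CPM on the HFD. In both genotypes a single HFD library, the fourth, reached into the chow range. The change did not pass in WT (log2 fold change -0.60, SE 0.20, edgeR adjusted p = 0.0598) or in KO (-0.40, SE 0.20, adjusted p = 0.19). Taken over both genotypes, with all 16 libraries, Ppargc1a fell by 0.50 on the log2 scale (SE 0.14, edgeR adjusted p = 0.0137). In WT its call was gained without KO chow 2 (edgeR adjusted p = 0.0452) or without WT HFD 4 (adjusted p = 0.0329, log2 fold change -0.75). Its paralogue Ppargc1b fell in both genotypes, by 0.84 in WT (edgeR adjusted p = 0.0111) and by 0.71 in KO (adjusted p = 0.0221).

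Prdm16 (ENSMUSG00000039410, chr4:154316125-154636873, minus strand) was at 26.5, 21.2, 23.3 and 28.2 CPM in WT chow and at 27.1, 19.7, 19.4 and 19.8 CPM in WT HFD. KO libraries held 23.2, 31.4, 27.1 and 30.8 CPM on chow and 21.5, 25.6, 23.9 and 28.4 CPM on the HFD. The diets overlapped in both genotypes, and the log2 fold change was -0.21 in WT (95% interval -0.50 to 0.09) and -0.18 in KO (-0.47 to 0.12), with edgeR adjusted p-values of 0.347 and 0.415.

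Kcnk3 and Otop1 encode membrane channels, Kcnk3 a background potassium channel and Otop1 a proton channel. Kcnk3 (ENSMUSG00000049265, chr5:30588170-30625271, plus strand) was at 73.7, 76.4, 92.7 and 85.5 CPM in WT chow, and at 85.6, 80.3, 90.2 and 57.6 CPM in WT HFD. In KO it was at 89.8, 83.7, 56.6 and 77.3 CPM on chow and at 59.0, 93.4, 83.5 and 76.2 CPM on the HFD. Its log2 fold change was -0.07 in WT (95% interval -0.42 to 0.29) and 0.02 in KO (-0.34 to 0.38), with edgeR adjusted p-values of 0.826 and 0.942. Kcnk3 shares 229 exon bases with the antisense gene Gm9899, which had 1513 read pairs in all.

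Otop1 (ENSMUSG00000051596, chr5:38275972-38304217, plus strand) was at 47.0, 42.3, 42.1 and 69.6 CPM in WT chow and at 41.0, 49.5, 67.6 and 42.6 CPM in WT HFD. KO libraries gave 67.9, 83.4, 55.1 and 59.5 CPM on chow and 28.4, 65.7, 63.3 and 51.6 CPM on the HFD. The diets overlapped, with log2 fold changes of 0.00 in WT (95% interval -0.53 to 0.53) and -0.35 in KO (-0.88 to 0.18). On the HFD Kcnk3 lay within the chow range of its genotype in 6 of 8 libraries and Otop1 in 5 of 8.

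Per kilobase of all annotated exons of the gene, which can be longer than any 1 transcript, the order of the members changed with the diet. On chow Cox8b was the most abundant in both genotypes (mean 209 CPM per kilobase in WT and 274 in KO), followed by Cidea (137 and 180) and Ucp1 (43.8 and 64.1). On the HFD Cox8b (75.5 and 74.6 CPM per kilobase) and Cidea (23.6 and 25.6) still led, but Ucp1, at 0.941 and 0.602, was the least abundant of the 10, behind Dio2, which had been the least abundant on chow. Kcnk3 was at 19.3 to 20.6 CPM per kilobase in all 4 groups.

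Over both genotypes together, 6 members were lower with the HFD and none was higher, where 16% of all genes tested were called lower and 17.1% higher. The 6 were the 5 above and Ppargc1a. The pooled log2 fold change was -6.13 for Ucp1 (SE 0.74, edgeR adjusted p = 0.000142), -2.67 for Cidea, -1.67 for Cox8b, -1.89 for Cox7a1 and -3.84 for Fabp3. Without WT chow library 4 that of Ucp1 was -5.27 (edgeR adjusted p = 3.52e-05). All 8 HFD libraries lay below all 8 chow libraries for Ucp1, Cidea, Cox7a1 and Fabp3, as for 2.53% of all genes tested. Within a genotype the diets did not overlap for 4 members in WT and 5 in KO, beside 7.43% and 8.47% of all genes with the HFD group below.

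Loss of Kmo was not followed by a detectable change of any member. On chow no member was called between KO and WT (edgeR), and none had an unadjusted p under 0.05. On the HFD none was called and Ppargc1a alone had an unadjusted p under 0.05. The same held over both diets, with 0 members called and Ppargc1a the only member under 0.05 before adjustment. DESeq2 and limma-voom likewise called 0 members in each of these comparisons. Of all genes tested, 0.00604% were called in each, which is the targeted gene Kmo alone, and 166 genes on chow, 188 on the HFD and 165 over both diets had an unadjusted p under 0.05.

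On chow 9 of the 10 log2 fold changes of KO against WT lay above 0, with a median of 0.40 beside -0.005 over all genes tested, but each sat inside the spread of the libraries. Ucp1 was at 71.6 ± 100.3 CPM (SD, n = 4) in WT and 104.9 ± 63.2 CPM in KO. The log2 fold change was 0.55 with a 95% interval of -1.14 to 2.23, so that a rise of more than 4-fold or a fall of 2-fold in KO cannot be told from no change with these libraries. The other values were 0.40 for Cidea, 0.75 for Dio2, 0.28 for Ppargc1a, 0.18 for Prdm16, 0.39 for Cox8b, 0.71 for Cox7a1, -0.09 for Kcnk3, 0.68 for Fabp3 and 0.40 for Otop1. All 10 edgeR adjusted p-values were 1, and KO and WT libraries overlapped for every member. Without WT chow library 4 the values were 2.28 for Ucp1, 1.01 for Cidea and 1.77 for Fabp3, each still with an edgeR adjusted p of 1. Without KO chow library 2 the values of Cox8b and Fabp3 were -0.09 and -0.01.

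On the HFD 6 values lay above 0 and 4 below, with a median of 0.09. Ucp1 was at 1.54 CPM in WT and 0.985 CPM in KO on average, a log2 fold change of -0.63 (95% interval -3.09 to 1.83). Ppargc1a, at a mean of 9.51 CPM in WT and 13.3 CPM in KO, had a log2 fold change of 0.48 with a 95% interval of 0.06 to 0.91. Its unadjusted p from the edgeR fit was 0.0281 and its adjusted p from edgeR was 1. Over both diets that of Ppargc1a was 0.38, with an unadjusted p of 0.0155 and an adjusted p of 1 in edgeR. The authors' deposited tables of KO against WT gave an adjusted p of 1 for all 10 members on both diets, with the smallest p-value of 0.0265 for Ppargc1a on the HFD. Over the 10 members the log2 fold changes on the HFD ran from -0.89 for Fabp3 to 0.48 for Ppargc1a.

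**Figure D4:**
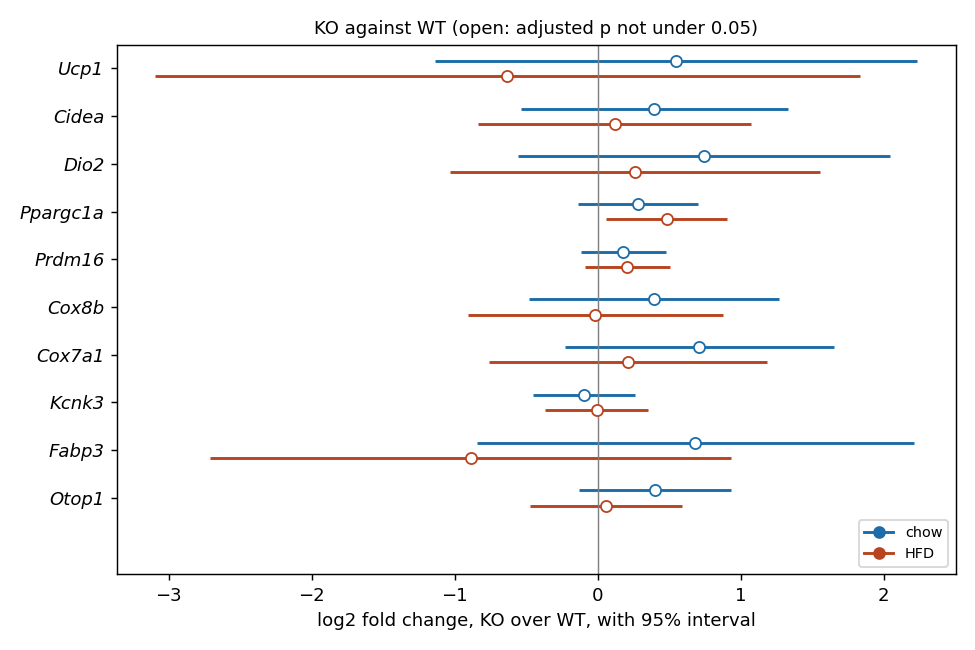
The log2 fold change of KO over WT is plotted for each gene on chow (blue) and on the HFD (red) with its 95% interval from the edgeR fit. All points are open because no adjusted p was under 0.05. The intervals include 0 for every gene except Ppargc1a on the HFD (0.06 to 0.91), and those of Ucp1 and Fabp3 are the widest.

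Whether the response to the HFD itself differed between KO and WT was tested as an interaction. The interaction value was -1.18 for Ucp1 (SE 1.38, 95% interval -4.16 to 1.80) and -1.57 for Fabp3 (SE 1.11), where a negative value means a larger fall in KO. Without WT chow library 4 these values were -2.91 and -2.66. Leaving out 1 library in turn, Ucp1 ran from -2.91 to -0.65, the latter without WT HFD 3, and Fabp3 from -2.66 to -0.89, the latter without KO chow 2. With only merged libraries the value of Ucp1 turned to 0.23. No member and 0% of all genes tested were called by edgeR. None of the members had an unadjusted p under 0.05, 187 of all genes did, and DESeq2 and limma-voom called 0 genes. The larger fold changes of Ucp1 and Fabp3 in KO were therefore not shown to differ from those in WT.

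A wider list of 30 thermogenic genes, 28 of them tested, was described in the same way. In WT 8 were lower and 2 higher with the HFD, with a median log2 fold change of -0.39. In KO 6 were lower and 2 higher, with a median of -0.44. Of all genes tested, 4.92% were called lower and 6.9% higher in WT, and 5.23% and 7.28% in KO. Ppara, a nuclear receptor that drives fatty acid oxidation, fell by 1.65 in WT (edgeR adjusted p = 0.00144) and by 1.47 in KO (adjusted p = 0.00218) on the log2 scale. Cpn2 fell by 2.67 and 2.29, from means of 2.18 and 3.00 CPM on chow to 0.335 and 0.606 CPM on the HFD. Pank1, a kinase of coenzyme A synthesis, fell by 1.87 in KO (edgeR adjusted p = 0.0166). Its WT mean was also lower, at 8.60 CPM on the HFD against 25.1 CPM on chow. Over both genotypes Pank1 fell by 1.71 (edgeR adjusted p = 0.00125). Gk, which makes glycerol 3-phosphate, rose by 0.97 in WT (edgeR adjusted p = 0.0211). No gene of this list was called between KO and WT or in the interaction (edgeR).

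Taken over both genotypes, 13 of the 28 genes were lower and 2 higher, where 16% of all genes tested were called lower and 17.1% higher. Adrb3, the beta-3 adrenergic receptor of fat cells, fell in WT from 436 ± 59.5 CPM (SD, n = 4) on chow to 209 ± 89.1 CPM on the HFD (edgeR adjusted p = 0.0269). It was named after its values were seen. Th and Dbh, the noradrenaline-making enzymes of sympathetic nerves, had 0 to 6 and 0 to 3 read pairs in any library, too few to compare.

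Of 9 markers that set beige cells apart from brown ones 8 were tested. Values below 0 were found for 6 of the 8 in each genotype, with a median log2 fold change of -0.36 in WT and -0.61 in KO, beside -0.03 and -0.04 over all genes. In each genotype 0 were called lower, where 4.92% and 5.23% of all genes were. The 1 called higher (edgeR), where 6.9% and 7.28% of all genes were, was the eosinophil gene Ear2. It went from 4.38 to 16.3 CPM in WT and from 5.95 to 15.4 CPM in KO. Tbx1, a transcription factor of beige cells, fell over both genotypes by 1.13 on the log2 scale (edgeR adjusted p = 0.00817), and Ear2 and Shox2 rose. Of 7 genes of interscapular brown fat, 6 were tested and none was called in WT (edgeR, adjusted p 0.0928 or more), while Pdk4 was lower in KO. Zic1, the marker of classical brown fat, had at most 2 read pairs in any library.

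Of 12 genes of white fat cells, Lep and Cidec rose in both genotypes and none passed as lower in WT or KO, while Cfd, which encodes adipsin, fell over both genotypes by 1.24 on the log2 scale (edgeR adjusted p = 0.0175). Lep, which encodes leptin, went from 1247 to 4743 CPM in WT and from 1292 to 4763 CPM in KO. Of 14 genes of mitochondrial mass, none was lower in WT and 1, Tomm20, was higher (log2 fold change 0.33, edgeR adjusted p = 0.038). In KO 1, Cox5a, was lower (-0.59, adjusted p = 0.0464). The shares of all genes tested were 4.92% lower and 6.9% higher in WT, and 5.23% and 7.28% in KO. Over both genotypes 4 of the 14 were lower (Uqcrc2, Sdhb, Cox5a and Tfam), where 16% of all genes were, and 1 was higher, with a median log2 fold change of -0.17 beside -1.09 for the 10 members.

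Which genes varied together with Ucp1 from animal to animal was described by the correlation of log2 CPM deviations from the group means over the 16 libraries, among 13136 genes. These points share the libraries and their depth, and 4 group means were removed from each gene. Cidea was the gene most like Ucp1 (Pearson's r = 0.889), followed by Adprhl1 (0.879), Armt1 (0.878), Trmt2b (0.876), Pank1 (0.870), Acot11 (0.860), Neil1 (0.850) and Hebp2 (0.847). Taken apart, the 8 chow libraries gave r = 0.968 for Cidea, 0.96 for Acot11, 0.948 for Neil1 and 0.963 for Hebp2. In the same order the 8 HFD libraries gave 0.55, 0.249, 0.34 and 0.645. The chow values of Adprhl1, Armt1, Trmt2b and Pank1 were 0.885, 0.89, 0.881 and 0.895. Their HFD values were 0.862, 0.837, 0.874 and 0.769. Acot11, a thioesterase of long-chain acyl-CoA known from brown fat, was at 20.1, 17.1, 6.39 and 95.9 CPM in WT chow, with the same high and low libraries as Ucp1. In KO chow it was at 66.4, 64.3, 33.4 and 6.94 CPM, and on the HFD at 2.27 to 5.95 CPM in all 8 libraries. Adprhl1 was at 6.06 CPM in WT chow library 4 and at 0.977 to 1.80 CPM in the others of that group.

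Among the members Fabp3 ranked 15 by this measure (r = 0.778), with r = 0.88 over the 8 chow libraries and 0.261 over the 8 HFD libraries. Otop1 had r = 0.555 and Cox7a1 0.535. Dio2 (0.416) and Cox8b (0.409) stood lower, and Kcnk3 (0.043), Prdm16 (-0.02) and Ppargc1a (-0.11) were near 0. For Prdm16 this joined r = 0.277 over the 8 chow libraries and r = -0.629 over the 8 HFD libraries. Kcnk3 had 0.152 and -0.134, and Ppargc1a had -0.225 and 0.102. Over the 8 chow libraries alone Otop1, whose group means did not differ between diets by the test, had r = 0.883 with Ucp1. Over the 8 HFD libraries its r was 0.317. The deviations of Ppargc1a thus did not track those of Ucp1 although its mean fell with the HFD.

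Ucp1 levels were set beside the muscle and lymphoid genes because both vary between libraries of a group. The muscle score had a mean of 4.05 in WT and 2.90 in KO on chow, and of 4.32 in WT and 2.71 in KO on the HFD. Over the 8 chow libraries Ucp1 had r = -0.682 and rho = -0.643 with it (exact permutation p = 0.0652 and 0.0962, adjusted p = 0.376 and 0.36 over 40 relations), and r = -0.366 without the 2 libraries farthest from the median. Over the 7 chow libraries merged over lanes r was -0.756. For Fabp3 these were r = -0.766 and rho = -0.857 (exact permutation p = 0.037 and 0.0107, adjusted p = 0.376 and 0.279), and r = -0.590 without those 2. On the HFD the values were r = 0.22 and rho = 0.048 for Ucp1 (exact permutation p = 0.606 and 0.935, adjusted p = 0.804 and 0.984). For Fabp3 they lay above 0, at r = 0.644 and rho = 0.667 (exact permutation p = 0.0846 and 0.0831, adjusted p = 0.376 and 0.36), with r = 0.484 without the 2 farthest libraries and 0.56 over the 5 merged ones. The relation of Ucp1 on chow thus shrank without 2 libraries, and none of the 40 relations had an adjusted p under 0.05. On chow Cox7a1 (r = -0.439) and Cox8b (r = -0.349) also had values below 0 with the muscle score, and did not pass the test. Of the 16 muscle genes tested none was called with the HFD in WT or KO (edgeR), with medians of -0.75 and -1.04.

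The lymphoid score, in which each gene has the same weight and Ighm does not dominate, had a mean of 3.87 in WT and 3.59 in KO on chow, and of 2.13 and 2.11 on the HFD, and moved with Ucp1 over the chow libraries with r = 0.548 and rho = 0.548 (exact permutation p = 0.157 and 0.171, adjusted p = 0.468 and 0.36). Without the 2 farthest libraries r was 0.1, and over the 7 merged over lanes 0.669. With the lymphoid score as a covariate the Ucp1 change in WT was -4.48 (edgeR adjusted p = 0.0218), and with both scores it was -4.26 (adjusted p = 0.0112). With either score as a covariate 5 members were lower in WT and 5 in KO, and with both scores 6 and 6. Under the lymphoid score Ppargc1a passed in WT and Fabp3 did not (edgeR adjusted p = 0.0619).

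**Figure D5:**
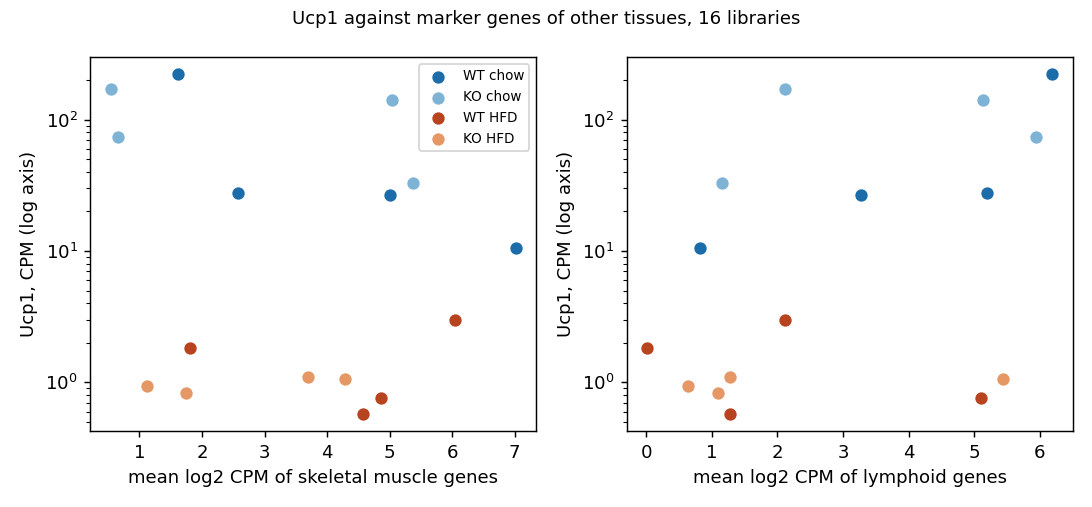
Ucp1 in CPM on a log axis is plotted against the mean log2 CPM of the muscle genes (left) and the lymphoid genes (right). Each point is 1 of the 16 libraries, coloured by group. Chow and HFD libraries lie apart in Ucp1, and the WT chow library with the lowest Ucp1 (10.5 CPM) has the highest muscle score (7.02) and the lowest lymphoid score of its group (0.82).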

How the data were processed

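RNA of 16 libraries was sequenced after poly-A selection with a stranded kit and paired reads of 150 bases, per the labels' protocols. The submitters' processing notes name STAR 2.7.3a and the build GRCm38.p6. Read pairs on genes of Ensembl 102 were counted by the authors, without strand, using featureCounts 2.0.3, per the file headers. Deposited counts are whole numbers, and overlapping or antisense genes cannot be told apart. The authors' deposited tables give log2 fold changes and p-values of KO against WT per diet. Only their p-values and adjusted p-values were used.

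Counts were analysed in R 4.3.3 with edgeR 4.0.16: filterByExpr, TMM factors, and a robust quasi-likelihood fit of the 4 group means to all 16 libraries. Benjamini-Hochberg adjustment ran over 16549 genes, and a call needed an adjusted p under 0.05. Shares of a paralogue pair were tested with exact two-sided permutation tests. Log2 CPM used a prior count of 2. Intervals are 95% intervals. Symbols came from the reference table for 55141 genes and from the authors' tables for 13; 333 had none. Counts simulated with known changes served to check the edgeR fit. Every pair of libraries differed by more than sampling noise (chi-square per gene at least 9.67). Nothing in the labels ties replicate numbers to separate cages or litters, and the p-values measure the spread between these libraries.

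Alternatives were other scaling factors, DESeq2 1.42.0, limma-voom (limma 3.58.1) with quality weights, other filters, a threshold of 0.10, a replicate block, marker scores or a single-lane term as covariates, only the libraries compared, and leaving out each library. Chosen after seeing the data were a fit with both scores, a fit on the 12 merged libraries, and one without the 2 libraries highest in muscle genes.

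The members and lists were chosen with earlier results of these data known. The rule names all 10 members, Kmo, at most 4 genes of each other list per comparison (called ones first by p, otherwise the most abundant), and the 8 genes most like Ucp1 with a mean CPM of at least 1.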

Additional observations from a re-analysis of the deposited data

Results flagged for a closer look

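A group of 4 libraries was marked where its highest or lowest value stood farther from its neighbour, relative to the range of the group, than Dixon's critical value of 0.829. For normally distributed values chance marks about 1 in 20 groups. The rule was run on CPM without a log, for which that rate was not checked. The 10 members have 4 groups of libraries each, and in 5 of these groups a library stood apart, each time the highest.

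Ucp1 in WT chow library 4 was at 222 CPM, while the next library of that group was at 27.7 CPM. WT chow library 4 had the lowest muscle score (1.61) and the highest lymphoid score (6.19) of its group. The part of these in its Ucp1 value was not tested. Ppargc1a in KO chow library 2 was at 23.3 CPM with the next at 15.96 CPM, and Ppargc1a in KO HFD library 4 was at 17.4 CPM with the next at 12.2 CPM. Prdm16 in WT HFD library 1 was at 27.1 CPM, and the other libraries of that group lay between 19.4 and 19.8 CPM. Fabp3 in KO HFD library 1 was at 0.92 CPM with the next at 0.553 CPM. That library came from a single lane and had the highest lymphoid score (5.44) and the highest muscle score (4.28) of its group, and the part of these in the value was not tested.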

How the results depend on the processing

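In KO 5 or 6 members were lower on the HFD than on chow under every alternative run. Over both genotypes 6 were, or 7 without WT HFD library 1. In WT, where 5 were called, the count was 2 with no filter, with the replicate block, with the single-lane term and without the 2 libraries highest in muscle genes, 3 with only the libraries compared, and 0 with only the libraries merged over lanes. Leaving out 1 library gave 2 to 6. The fit on merged libraries leaves out WT chow 2, WT HFD 3, WT HFD 4 and KO HFD 1. Both libraries highest in muscle genes are WT. These fits thus took more libraries from WT than from KO, and their counts do not compare the firmness of the 2 genotypes. Ucp1 and Cidea kept their calls in WT except with only merged libraries (edgeR adjusted p = 0.0701 and 0.0588). With limma-voom Cox7a1 and Fabp3 lost their calls in WT (limma adjusted p = 0.0934 and 0.101), and Ppargc1a gained one with DESeq2, upper-quartile factors and limma-voom. The unfiltered fit adjusts over more genes and the fits on fewer libraries hold fewer samples. What caused any of the losses was not tested. No member was called between KO and WT or in the interaction under any alternative.

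Leaving out 1 library, the difference of the Cox8b share in KO ran from -20.0 to -13.2 percentage points, that of the Cox7a1 share from -9.06 to -5.19 in WT and from -13.0 to -6.97 in KO. Some of these exact permutation tests no longer passed. For Cox7a1 in WT the exact permutation p was 0.0286 without any 1 chow library and 0.114 to 0.143 without 1 HFD library. In KO both shares had 0.0286 without any 1 chow library and 0.0571 without any 1 HFD library. Fewer arrangements are possible with 3 against 4 libraries, but their number is the same whichever diet lost the library. Why the p-values differed between these cases was not tested.

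Small changes that did not pass the test turned their sign. For the HFD in WT, Dio2 was -0.09 with the replicate block, -0.23 with only merged libraries and -0.071 without the 2 muscle-rich libraries. Kcnk3 was 0.014 with limma-voom. Otop1 was 0.12 with limma-voom, 0.018 with no filter, 0.031 with the muscle score and 0.092 with the single-lane term. In KO, Dio2 was 0.021 with limma-voom and 0.009 with merged libraries, and Kcnk3 was -0.042 with upper-quartile factors, -0.035 with the lymphoid score and -0.013 with both scores. With only merged libraries Ucp1 was 0.51 for KO against WT on the HFD and 0.23 for the interaction. Leaving out 1 library, the HFD values in WT ran from -0.13 to 0.47 for Dio2, -0.137 to 0.059 for Kcnk3 and -0.18 to 0.20 for Otop1. In KO they ran from -0.61 to 0.24 for Dio2 and -0.10 to 0.14 for Kcnk3. KO against WT on chow ran from -0.088 to 0.608 for Cox8b, -0.178 to 0.027 for Kcnk3 and -0.006 to 1.77 for Fabp3.

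Replicate numbers did not pair the samples: same-numbered libraries of different groups had a median correlation of -0.22 in their deviations, other pairs 0.06, and 5 of 16 libraries correlated best with their own number. With the replicate block 1050 genes were called in WT and 1126 in KO for the HFD, against 1957 and 2071 without it. With no filter these counts were 1245 and 1284, at a threshold of 0.10 they were 3366 and 3460, limma-voom gave 3412 in KO, and only the libraries compared gave 1140 in WT.

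Of the 8 genes most like Ucp1, 5 remained with Spearman's correlation and 3 with the 8 chow libraries alone. Depth limits the HFD values of Ucp1 and Fabp3, which rest on 7 to 45 read pairs per library.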
